A study of Mus musculus with 2 samples.

Results

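The miR-129 and miR-218 genes each come as a pair of loci in the mouse genome, and the counts of all 4 genes, Mir129-1, Mir129-2, Mir218-1 and Mir218-2, are described here out of 2202 microRNA (miRNA) genes in the deposited tables. They were chosen by name, through their GENCODE M21 symbols. No value entered that rule, but earlier results of these data were known. All 4 passed the minimum of 10 sense counts in both libraries. The libraries are small RNA sequencing of hippocampus, labelled as a layer of it, from female B6CASTF1/J mice aged 2 months, F1 hybrids of C57BL/6 and castaneus-derived mice. There is 1 group, with biological replicates 2 and 1 and no treatment or altered allele named. The labels give the 2 tissue samples 1 donor record and do not state separate animals, so part of their spread may be technical.

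miRNAs are cut from a hairpin in a longer transcript, and either arm of the hairpin (5p or 3p) can be loaded into Argonaute, where bases 2 to 8, the seed, pair with target mRNAs and repress them. miR-129 is a brain-enriched miRNA that is known in hippocampal neurons for holding down translation of the potassium channel Kv1.1 and for a role in homeostatic down-scaling of synapses. miR-218 is known above all as a miRNA of motor neurons and is also made in forebrain neurons. Its loci lie inside Slit2 and Slit3, which encode secreted axon guidance ligands of the Robo receptors, and Robo1 is a known target of miR-218.

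Sequences decide what these counts can hold, because a read with more than 1 place in the genome is given to no gene in the tables, which was so for 48.4% of replicate 2 and 45.9% of replicate 1. The mature arms are shown first, from RefSeq on GRCm38.p6, since they show which arms the loci of a pair have in common, with the seed in capitals.
miR-129-5p (Mir129-1 and Mir129-2): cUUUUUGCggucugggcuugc
miR-129-2-3p (Mir129-2): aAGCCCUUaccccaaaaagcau
miR-218-5p (Mir218-1 and Mir218-2): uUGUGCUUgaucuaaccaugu
miR-218-1-3p (Mir218-1): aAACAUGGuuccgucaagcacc
miR-218-2-3p (Mir218-2): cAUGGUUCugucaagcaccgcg

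The 5p arms were identical between the loci of each pair over all 21 bases, and among the annotated miRNA genes each was found in those 2 genes and in no other. Each annotated 3p arm was found in 1 gene. Placed on the Mir129-1 hairpin, miR-129-2-3p differed at 1 base, C20U, counted from 1 at its 5′ end, so its first 19 bases were the same at both loci. miR-218-1-3p placed on Mir218-2 differed at 2 bases, A1G and C12U, and miR-218-2-3p placed on Mir218-1 differed at 3, U9C, G20A and C21U. The annotated 5′ ends of the miR-218 3p arms are not aligned, so their seeds differ. Among the mature miRNAs in the RefSeq table, the seed of miR-129-5p and that of miR-129-2-3p occurred in no other miRNA, that of miR-218-5p was shared with miR-7002-3p, and that of miR-218-1-3p with miR-496b. No 3p arm of Mir129-1 is listed there, although the Mir129-1 hairpin also holds the seed of miR-129-2-3p.

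The whole hairpins show how far the identity extends, with stretches of 18 or more bases common to both loci of a pair in capitals.
Mir129-1: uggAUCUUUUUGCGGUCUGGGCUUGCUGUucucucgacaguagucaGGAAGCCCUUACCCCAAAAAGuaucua
Mir129-2: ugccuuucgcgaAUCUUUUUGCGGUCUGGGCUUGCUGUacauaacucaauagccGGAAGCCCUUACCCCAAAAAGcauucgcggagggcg
Mir218-1: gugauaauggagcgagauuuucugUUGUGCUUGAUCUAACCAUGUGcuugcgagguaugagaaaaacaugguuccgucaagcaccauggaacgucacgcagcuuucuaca
Mir218-2: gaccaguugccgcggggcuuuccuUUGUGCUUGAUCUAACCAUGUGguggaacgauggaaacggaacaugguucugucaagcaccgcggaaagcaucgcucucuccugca

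The miR-129 loci share a stretch of 26 bases over the 5p arm and another of 21 bases over the 3p arm, while the miR-218 loci share 1 stretch of 22 bases over the 5p arm. In windows of 18 bases, 13 of 56 in Mir129-1 and 13 of 73 in Mir129-2 also lay in the paired gene, against 5 of 93 in each miR-218 gene. In windows of 22 bases these were 5 of 52, 5 of 69 and 1 of 89, and in windows of 24 bases 3 of 50, 3 of 67 and 0 of 87. These fractions weigh every position of the hairpin alike and are not shares of reads. The shared window of 22 bases in the miR-218 genes starts at base 25, where miR-218-5p starts. Every window of these lengths that matched another miRNA gene on either strand also lay in the paired gene. Mir129b, described below, lies opposite Mir129-2 and was left out of the search for that gene. Matches elsewhere in the genome were not examined. The longest stretch in the other 21 pairs of loci described below ranged from 22 to 30 bases with a median of 24, so the 26 of miR-129 and the 22 of miR-218 lie within that range. A read wholly within a stretch common to both loci, such as all 21 bases of a 5p arm, has more than 1 place. It is counted at neither locus, so the counts below rest on reads that reach outside such stretches. The counts are per gene and do not separate the arms, so which arm the counted reads came from was not tested.

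**Figure D1:**
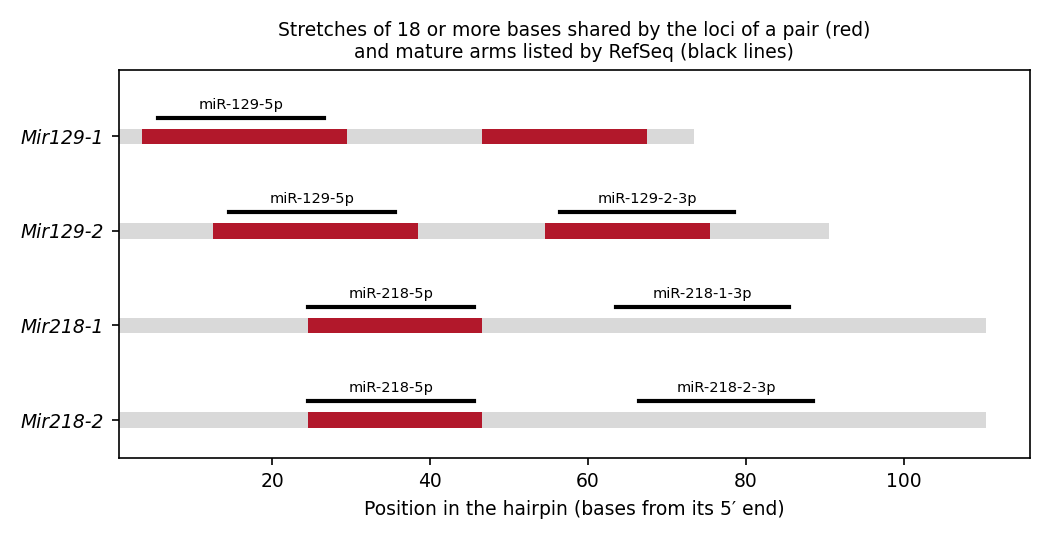
Hairpins of the 4 genes drawn to scale in bases from their 5′ ends, with stretches of 18 or more bases common to both loci of a pair in red and the mature arms listed by RefSeq as black lines. The miR-129 loci share stretches of 26 and 21 bases, 1 in each arm, and the miR-218 loci share 22 bases in the 5p arm.

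The loci lie on 4 chromosomes of GRCm38 (mm10). Mir129-1 (ENSMUSG00000065469.1) lies on chromosome 6, positions 29022619 to 29022691 on the plus strand, within exon 2 of the long non-coding RNA gene Gm3294. Mir129-2 (ENSMUSG00000065511.1) lies on chromosome 2, positions 94241364 to 94241453 on the minus strand, in an intron of the long non-coding RNA gene Mir670hg. Mir218-1 (ENSMUSG00000065603.1) lies on chromosome 5, positions 48223942 to 48224051 on the plus strand, and Mir218-2 (ENSMUSG00000065583.1) on chromosome 11, positions 35616816 to 35616925 on the plus strand. Both miR-218 hairpins sit on the coding strand between exons 14 and 15 of the longest transcript of their host, Slit2 and Slit3, each with 36 exons, 602 and 4380 bases from the nearest exon. Folded with RNAfold, the hairpins had predicted minimum free energies of -31.0 kcal/mol over 73 bases for Mir129-1, -48.0 kcal/mol over 90 for Mir129-2, -36.6 kcal/mol over 110 for Mir218-1 and -42.3 kcal/mol over 110 for Mir218-2.

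Replicate 2 held 5979247 sense counts on miRNA genes and replicate 1 held 4517648, and levels are given as counts per 1000000 of these (CPM), with 95% exact Poisson intervals that cover counting error only. A count of 0 would allow up to 0.502 CPM in replicate 2 and 0.664 CPM in replicate 1. The list of neuron-enriched miRNAs held 5.54% of replicate 2 and 5.18% of replicate 1, led by the activity-induced Mir132 and by Mir128-1. The larger share in replicate 2 does not mean that most genes of the list were higher there. Of its 13 tested genes, 3 were higher, Mir132 among them, and 9 lower, as given below. The other lists held 2.23% and 1.92% (endothelial and mural), 1.78% and 1.61% (astrocyte-associated), 0.698% and 0.653% (oligodendrocyte), 0.206% and 0.176% (microglia and leukocyte) and 0.202% and 0.150% (choroid plexus and ependyma) of replicates 2 and 1. In bulk tissue, fewer cells of a type and less RNA per cell cannot be told apart.

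Locus 2 held most of the counts in both pairs and both libraries. Reads common to both loci are not among these counts, so they are not the whole output of a locus. The order of the levels was Mir129-2, Mir218-2, Mir129-1 and Mir218-1, the same in both libraries, and the ranges of neighbours in this order over the libraries did not overlap. Together the 4 genes made up 0.165% ± 0.0105 (SD, n = 2) of the sense counts, 0.158% of replicate 2 and 0.173% of replicate 1.

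Mir129-2 had 6305 counts in replicate 2 and 5485 in replicate 1, or 1054 CPM (1029 to 1081) and 1214 CPM (1182 to 1247). Its mean of 1134 ± 113 CPM (SD, n = 2) ranked 88th of the 2202 genes. It was the most abundant of the 4, and stood above the median of 85.3 CPM over the 420 genes with 10 or more counts in both libraries. Mir129-1 had 981 counts in replicate 2 and 780 in replicate 1, or 164.1 CPM (154.0 to 174.7) and 172.7 CPM (160.8 to 185.2), a mean of 168.4 ± 6.07 CPM at rank 181. Mir129-2 was counted 6.43-fold more than Mir129-1 in replicate 2 (95% exact binomial interval 6.01 to 6.88) and 7.03-fold more in replicate 1 (6.52 to 7.59).

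Mir218-2, in Slit3, had 1971 counts in replicate 2 and 1413 in replicate 1, or 329.6 CPM (315.2 to 344.5) and 312.8 CPM (296.7 to 329.5), a mean of 321.2 ± 11.9 CPM (SD, n = 2) at rank 143. Mir218-1, in Slit2, had 182 counts in replicate 2 and 125 in replicate 1, or 30.4 CPM (26.2 to 35.2) and 27.7 CPM (23.0 to 33.0), a mean of 29.1 ± 1.96 CPM at rank 261. The Slit2 locus was thus the lowest of the 4 and the only one below the median of the 420 genes. Mir218-2 was counted 10.8-fold more than Mir218-1 in replicate 2 (95% exact binomial interval 9.30 to 12.7) and 11.3-fold more in replicate 1 (9.41 to 13.7). Across the pairs, Mir129-2 stood 3.20-fold above Mir218-2 in replicate 2 and 3.88-fold in replicate 1, and Mir129-1 stood 5.39-fold and 6.24-fold above Mir218-1.

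**Figure D2:**
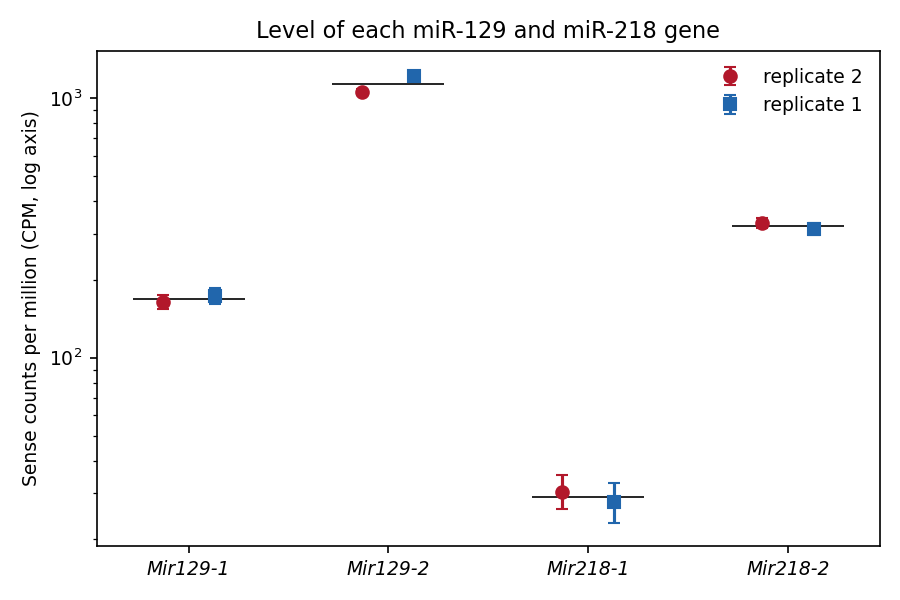
Level of each gene in CPM on a log axis, with replicate 2 as circles, replicate 1 as squares, 95% exact Poisson intervals as bars and the mean of both as a line. Mir129-2 lies at 1054 and 1214 CPM and Mir218-1 at 30.4 and 27.7 CPM, with no overlap between genes.

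Of the 17 neuron-enriched genes listed for comparison, 7 had a higher mean CPM than Mir129-2, 9 than Mir218-2, 10 than Mir129-1 and 12 than Mir218-1. The 5 genes below Mir218-1 were the 3 miR-124 genes, Mir9-1 and Mir9-2, named after their values were seen. Both families have several gene copies, and a read that matches more than 1 copy is given to no gene. Their low counts therefore need not mean low levels of miR-124 or miR-9, and reads lost in this way were not examined. The 4 genes lose reads common to both loci in the same way. Their positions among the neuron-enriched genes are therefore those of counted reads and not of whole levels. Mir670, which lies in the same host gene as Mir129-2 and was also named after its value was seen, had 26 counts in each library, or 4.35 CPM in replicate 2 and 5.76 CPM in replicate 1.

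The division of counts within a pair was then compared between the libraries, a question that does not depend on how the libraries are scaled. It covers only reads that could be placed at 1 locus, and not the reads that the loci have in common. Mir129-1 held 13.5% of the miR-129 counts in replicate 2 (95% Wilson interval 12.7 to 14.3) and 12.5% in replicate 1 (11.7 to 13.3), 13.0% ± 0.717 (SD, n = 2), and Mir129-2 held the other 87.0%. Mir218-1 held 8.45% of the miR-218 counts in replicate 2 (7.35 to 9.70) and 8.13% in replicate 1 (6.86 to 9.60), 8.29% ± 0.230, and Mir218-2 held the other 91.7%. The intervals of the miR-129 and miR-218 pairs did not overlap, so the smaller locus held a larger share in the miR-129 pair. Neither division differed between the libraries by more than counting error in a two-sided Fisher's exact test adjusted over 23 pairs by Benjamini and Hochberg (adjusted p = 0.144 for miR-129 and 0.923 for miR-218). The odds of locus 1 in replicate 2 over replicate 1 were 1.09 (95% exact interval 0.988 to 1.21) for miR-129 and 1.04 (0.818 to 1.34) for miR-218. The counts are compatible with a shift of any size within these bounds.

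All 43 miRNA families that hold exactly 2 genes by symbol were set beside them, of which 23 had 10 or more counts over the pair in both libraries. The division differed between the libraries in 12 of the 23, or 52.2%, all of them among the 21 other pairs, and the median difference of those 21 was 2.49 percentage points. The miR-129 and miR-218 pairs differed by 1.01 and 0.326 points. The larger locus held a median of 82.3% in the other 21 pairs, with a lowest value of 54.7%, and in 7 of them it held more than in either miR-129 or miR-218. Locus 2 was the larger in 13 of the 21. By the summed CPM of reads placed at 1 locus, the miR-129 pair ranked 7th and the miR-218 pair 14th of the 23. Reads common to both loci of a pair are not in these sums, so the ranks are not those of the whole output of the pairs.

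The 3 of the other pairs with the highest sums all differed between the libraries by Fisher's exact test. Mir128-1 held 81.3% of the miR-128 counts in replicate 2 and 83.3% in replicate 1 (adjusted p = 1.16e-24). Mir138-1 held 66.9% of the miR-138 counts in replicate 2 and 64.4% in replicate 1 by the same exact test (adjusted p = 1.25e-10). Mirlet7f-1 held 5.40% of the let-7f counts in replicate 2 and 6.28% in replicate 1, also by the exact test (adjusted p = 0.000227).

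**Figure D3:**
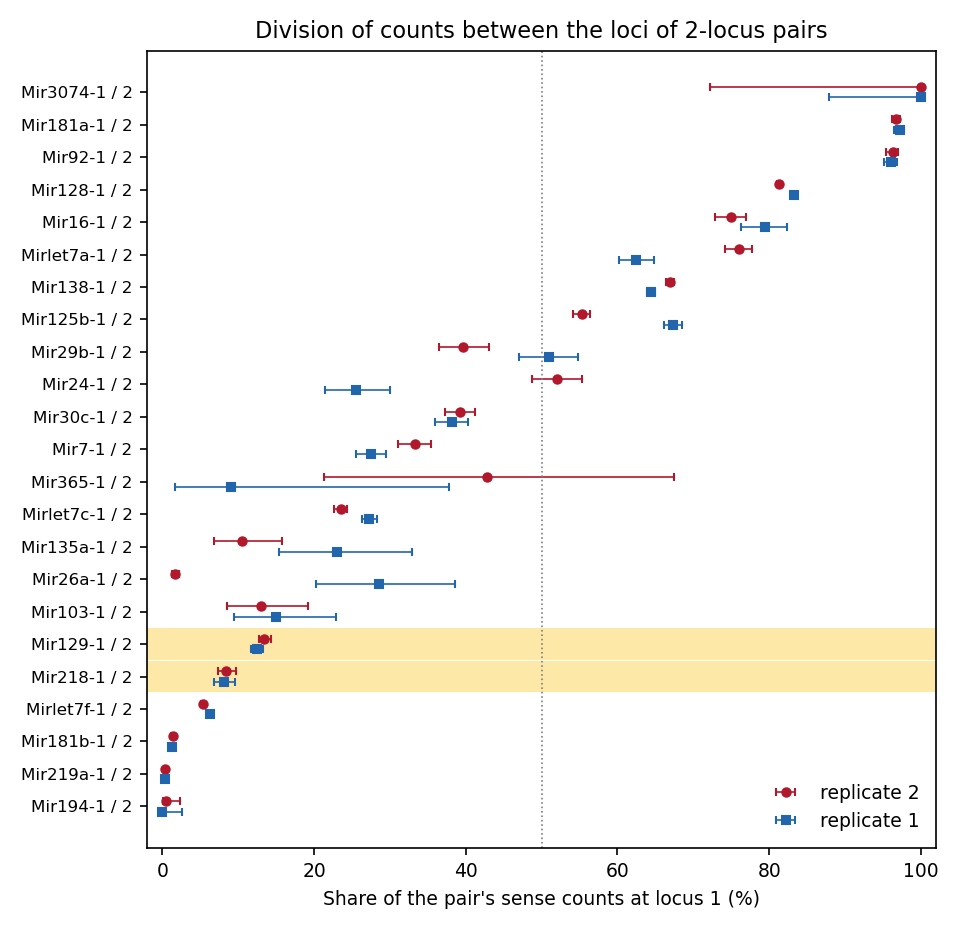
Share of the sense counts of each pair held at locus 1, in percent, for the 23 tested pairs ordered by mean share, with replicate 2 as circles, replicate 1 as squares and 95% Wilson intervals. The miR-129 and miR-218 pairs (shaded) lie at 13.5% and 12.5% and at 8.45% and 8.13%, toward the end where locus 2 holds most counts.

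Which column of the tables is read decides the order within the miR-129 pair. Mir129b (ENSMUSG00000106336.1) is annotated on the plus strand of chromosome 2 at positions 94241378 to 94241442, wholly inside Mir129-2 on the opposite strand. Counted without regard to strand, Mir129-2 had 8 counts in replicate 2 and 12 in replicate 1, or 0.127% and 0.219% of its sense counts, and in that column Mir129-1 held 98.8% of the pair, the opposite of the sense column. The column places reads that overlap 2 genes among the ambiguous reads. The other 3 genes had the same counts in both columns, so the miR-218 split was 8.29% there as well. Among all 420 genes tested, 27 kept under 10% of their sense counts without regard to strand, and 373 had the same counts.

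Mir129b itself had 6 sense counts in replicate 2 and 1 in replicate 1. That is 1.00 CPM (95% exact Poisson interval 0.368 to 2.18) in replicate 2 and 0.221 CPM (0.00560 to 1.23) in replicate 1. These are the same numbers as the antisense counts of Mir129-2, and the lower bound of each interval lies below the level that a count of 0 allows. Mir129-1, Mir218-1 and Mir218-2 had 0 antisense counts in both libraries, which allows up to 3 counts each.

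**Figure D4:**
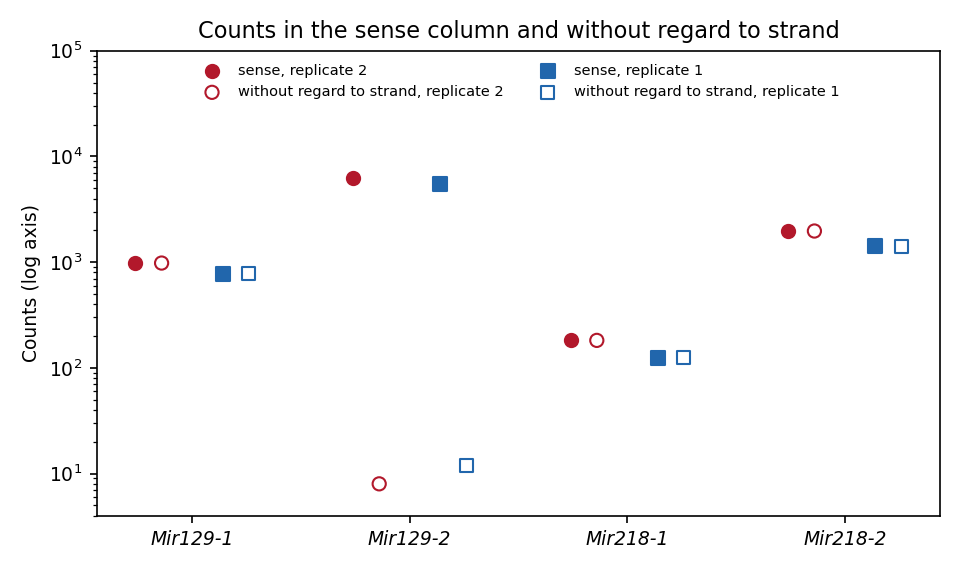
Counts of each gene on a log axis in the sense column (filled) and without regard to strand (open), with replicate 2 as circles left of replicate 1 as squares. Mir129-2 falls to 8 and 12 counts without regard to strand and the other 3 genes do not move.

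With 1 group, the comparison left is that of the 2 libraries with each other, each gene against all other miRNA counts in a two-sided Fisher's exact test adjusted over 420 genes. It says nothing of a condition. Of the 420, 239 differed, or 56.9%, with 27.1% higher and 29.8% lower in replicate 2. Of the 4 genes, 1 was lower in replicate 2, 0 were higher and 3 did not pass the threshold of 0.05, so they do not exceed that background. Their median difference was 1.08-fold in either direction, next to 1.23-fold over all 420 genes.

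Mir129-2 was the gene that passed, at a log2 ratio of replicate 2 to replicate 1 of -0.20 on the log2(CPM + 0.5) scale (95% exact binomial interval -0.26 to -0.15, adjusted p = 8.13e-14 by Fisher's exact test), or 1.15-fold lower in replicate 2. Of the 420 genes, 37.6% had a smaller ratio in either direction. Mir129-1 stood at -0.07 (-0.21 to 0.06, adjusted p = 0.391 by the exact test). That Mir129-2 passed and Mir129-1 did not does not show a difference between the loci, and the test of their division did not pass the threshold (adjusted p of 0.144 above).

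Mir218-2 stood at a log2 ratio of 0.08 (95% exact interval -0.02 to 0.18, adjusted p = 0.206 by Fisher's exact test) and Mir218-1 at 0.14 (-0.20 to 0.48, adjusted p = 0.524). With TMM or DESeq2 size factors, which move the median of all genes by 0.04 on the log2 scale, Mir218-2 passed as higher in replicate 2 at 0.11 and 0.12 (exact binomial test, adjusted p = 0.0434 and 0.034), so that call depends on the scaling. All 4 ratios kept their sign under both scalings.

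Calls in the lists of marker miRNAs are given beside all 420 tested genes, of which 27.1% were higher and 29.8% lower in replicate 2. No list was tested as a set against these shares. In the neuron-enriched list 3 of 13 tested genes were higher and 9 lower in replicate 2 and 1 did not pass, with a median log2 ratio of -0.20. Mir124a-1, Mir124a-2, Mir124a-3 and Mir9-2 had too few counts to be tested. In the epithelial and sensory list (the miR-200 and miR-183 clusters) all 7 tested of 8 genes were lower in replicate 2, and the list held 0.0206% of replicate 2 and 0.0632% of replicate 1, with none of its genes at 0 in both libraries. In the hindbrain and spinal cord list (the Hox cluster miRNAs) 2 of 3 tested genes were lower and 1 did not pass, and it held 0.00209% of replicate 2 and 0.00361% of replicate 1, with Mir196a-1 at 0 in both. The part of these lists in the lower Mir129-2 count of replicate 2 was not tested. In the remaining lists, replicate 2 had 3 of 4 astrocyte-associated genes higher and 1 lower, 2 of 3 endothelial and mural genes higher, 1 of 3 oligodendrocyte genes higher and 1 lower, 2 of 5 microglia and leukocyte genes higher and 2 of 4 choroid plexus and ependyma genes higher, with the rest not past the threshold. The median log2 ratio of the microglia and leukocyte genes was nevertheless -0.15.

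**Figure D5:**
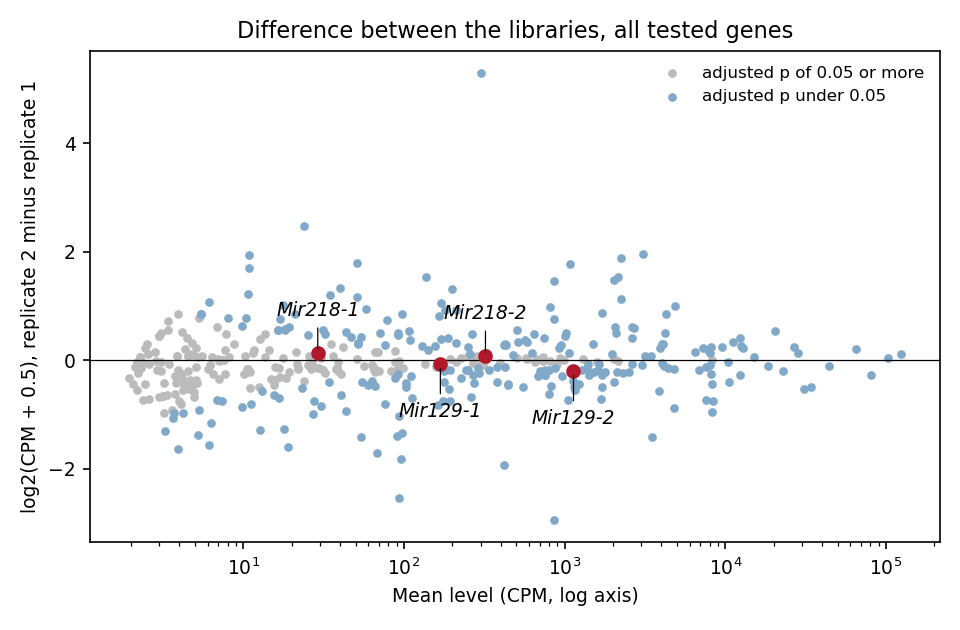
Difference between the libraries on the log2(CPM + 0.5) scale, replicate 2 minus replicate 1, against the mean level in CPM on a log axis for 420 genes, coloured by adjusted p. The 4 genes (red) lie between -0.20 and 0.14.

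The genes nearest to each of the 4 in level over both libraries were found as the 3 with the smallest distance in log2(CPM + 0.5), which describes 2 libraries and no more. For Mir129-2 they were Mir423, Mir181b-2 and Mir381, at distances of 0.127 to 0.214, and for Mir129-1 they were Mir702, Mir30c-1 and Mir350, at 0.110 to 0.136. For Mir218-2 they were Mir666, Mir329 and Mir145a, at 0.0607 to 0.123, and for Mir218-1 they were Mir193b, Mir6516 and Mir1264, at 0.122 to 0.201. No member was among the nearest genes of its paired locus. Mir381, Mir666 and Mir329 belong to the imprinted Dlk1-Dio3 region of chromosome 12.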

How the data were processed

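The members and lists were chosen with earlier results of these data known. The authors deposited 1 table of raw read counts per library, not normalized, quantified on mm10 and GENCODE M21, per the notes deposited with it. For the aligner and trimming, nothing is given in the sources used here. The tables name no columns, and of the strand columns the one with the larger total was read as sense. Total lines (unmapped 11.2% and 11.8% of reads in replicates 2 and 1, outside genes 3.69% and 3.60%, several places as in the report) were left out of library sizes. All 2202 identifiers matched GENCODE symbols. Host genes come from GENCODE M21 and mature and hairpin sequences from RefSeq (GRCm38.p6). All 4 hairpins matched in both.

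Ratios use log2(CPM + 0.5). Fisher's exact tests (scipy 1.17.1) required 10 counts in both libraries, with Benjamini-Hochberg adjustment at 0.05, and were tested on simulated data. The simulated counts held counting error only, so they do not show how the tests behave with further spread between libraries. Over the 420 genes that further spread, the common dispersion of edgeR, was 0.0972, a coefficient of variation of 0.312. The tests do not include it. edgeR 4.0.16 and DESeq2 1.42.0 gave scaling factors, and edgeR the dispersion, but no test, since 1 group allows no quasi-likelihood test. Scaled ratios were tested by an exact binomial test. RNAfold 2.7.2 folded the hairpins. Intervals are 95% and cover counting error only: reads copied by PCR do not each stand for a molecule. Genes named are the 4 members, overlapping miRNA genes, the 3 nearest in level, the 3 most abundant other pairs and up to 2 markers per list, besides those said to be named later and untested list genes.

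Alternatives were counts without regard to strand, TMM, DESeq2 size factors, a total without the most abundant gene, minimums of 1 and 100 counts, no filter, replicate 2 thinned to 4517648 counts, pseudocounts of 1 and 5 CPM and leaving out each replicate.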

Additional observations from a re-analysis of the deposited data

Results flagged for a closer look

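The antisense column enters no test above. Among the 4 members and Mir129b, which overlaps Mir129-2, it held counts above the 3 that a count of 0 allows at Mir129-2 and Mir129b, and other miRNA genes with antisense counts are not described here. Mir129-2 had 6 antisense counts in replicate 2. Mir129b had 6297 antisense counts in replicate 2 and 5473 in replicate 1, which lie on the strand of Mir129-2, whose sense counts there were 6305 and 5485.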

How the results depend on the processing

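Counted without regard to strand, the share of the miR-129 pair at Mir129-1 turned to 98.8%, from the overlap of Mir129b with Mir129-2, and Mir129-2 stood at 2.16 CPM, too few counts for a ratio. Mir129-1, Mir218-1 and Mir218-2 stood at 182.4, 31.5 and 348.0 CPM in that column, whose total is smaller. With a total without the most abundant gene, Mir129-1, Mir129-2, Mir218-1 and Mir218-2 stood at 192.2, 1295, 33.2 and 366.8 CPM. Mir218-2 passed the threshold with TMM (log2 ratio 0.11, adjusted p = 0.0434) and DESeq2 size factors (0.12, adjusted p = 0.034) by the exact binomial test, and over its other alternatives the adjusted p ranged from 0.103 to 0.402. The other 77 of 88 alternatives kept direction and side of the threshold or moved by less than the spread between the libraries. They include the genes called (200 to 249, 239 as reported) and the pairs called (10 to 11, 12 as reported). The number tested moved too, so the share of genes called depends on the filter. It was 200 of 270 at a minimum of 100 counts and 249 of 774 with no filter, next to 239 of 420 as reported. Leaving out a replicate gave shares of 12.5% to 13.5% for Mir129-1 and 8.13% to 8.45% for Mir218-1. No paired analysis was possible because there is 1 group. Depth limits Mir218-1 most, with 182 and 125 counts in replicates 2 and 1.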
